A study of Mus musculus with 383 samples.

Results

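The collagen alpha chain genes were read across 4 brain regions of a mouse cross. Members were all probe sets annotated to 1 gene whose symbol is Col, a number, the letter a and a number. The rule found 82 probe sets of 42 genes among 45037 probe sets on the array, of which 34945 carried 1 gene symbol and stood for 18193 genes. For 27 of the 42 genes several probe sets were present. The probe set that was brightest on average over all arrays stands for the gene unless another is named. For 6 genes another probe set was brightest over cortex and thalamus arrays alone. By textbook class, 21 probe sets of 11 genes belonged to fibrillar collagens, 24 of 9 genes to fibril-associated collagens, 12 of 6 genes to the basement membrane network, 3 of 2 genes to multiplexins and 7 of 5 genes to beaded filament collagens. A further 5 probe sets of 3 genes belonged to short chain collagens, 7 of 4 genes to transmembrane collagens and 3 of 2 genes to other types.

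All animals were male F2 mice from a cross of C57BL/6J and 129S1/SvImJ, so that each mouse carried its own mixture of the 2 parental genomes, and there was no untreated or mutant group. The mice were bought at 4 weeks of age, went through behavioural tests from 7 weeks, received recording electrodes at 10 weeks, and had their sleep recorded undisturbed, following 6 h without sleep, and following restraint for 1 h. Brain tissue was taken at 16 weeks, after a rest, between 6 and 7 h after lights on. Total RNA of 117 mice was hybridised, with 98 cortex, 83 hippocampus, 94 hypothalamus and 108 thalamus arrays, and 91 mice gave both cortex and thalamus. Each array is a different animal within a region, so p-values of tests within a region measure the spread between mice. Those for cortex minus thalamus levels use 1 spread shared by the arrays of all 4 regions, without pairing by mouse. An array of a whole region cannot tell fewer cells of a type from less RNA per cell. The labels did not say how the regions were dissected.

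Collagens are secreted or membrane-bound proteins built from 3 chains wound into a triple helix. Fibrillar collagens such as types I and III form the fibres of connective tissue, which in the brain lie mainly in the meninges and around larger vessels, while type IV collagen forms the sheet of the basement membrane beneath endothelium and around the brain surface. Neurons and glia make few of these chains, but some members, such as the transmembrane collagen Col25a1 and the fibril-associated Col19a1, are known from neurons.

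The region labels held for their defining markers. The cortical genes Tbr1, Fezf2 and Neurod6 and the thalamic genes Tcf7l2, Shox2 and Lhx9 did not overlap between cortex and thalamus arrays. Values are log2 array intensities, and only cortex and thalamus levels are compared here, since the levels of the other regions were on another scale. The means of 769 probe sets in hippocampus and 335 in hypothalamus lay outside 0 to 16, against 0 in cortex and 0 in thalamus. Among collagen probe sets this held for 1 in hippocampus and 0 in hypothalamus. Of the 82 members, 51 were brighter than the dimmest of 3 equal parts of all probe sets, by their mean over cortex and thalamus. For a slope on RNA integrity (RIN), limma called 0 of 82 members in each region, where it called 0% of all probe sets, with 1, 4, 6 and 2 members at an unadjusted p under 0.05 in cortex, hippocampus, hypothalamus and thalamus.

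The first comparison asked how collagen levels differ between cortex and thalamus. A probe set was called when limma's adjusted p was under 0.05 and the difference of the log2 values was at least 1, that is 2-fold. Of the 82 members, 9 were called, 11% of them, against 5.51% of all probe sets. In thalamus 6 were higher, against 3.21% of all probe sets, and in cortex 3 were higher, against 2.3%. The median cortex minus thalamus difference was -0.25 over the members and -0.15 over all probe sets. By the adjusted p alone 72 of 82 passed, against 84.3% of all probe sets, with 60 higher in thalamus (60% of all probe sets) and 12 in cortex (24.3%).

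**Figure D1:**
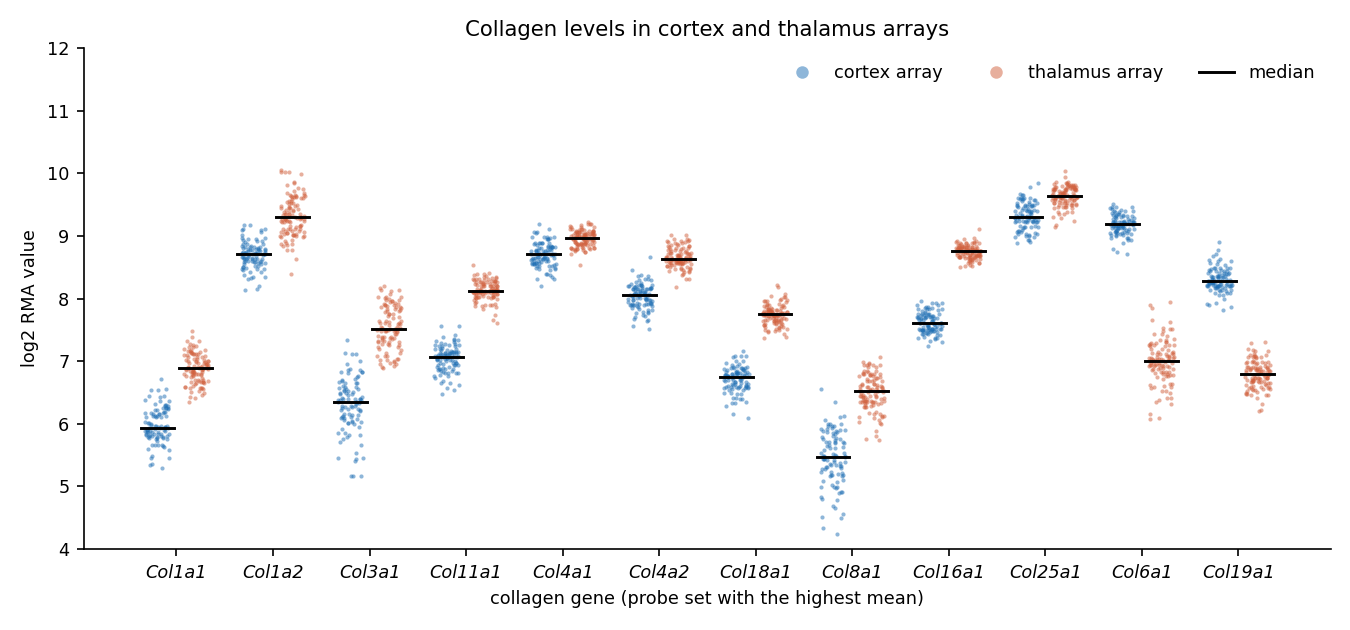
Log2 values (vertical axis) of 12 collagen genes in every cortex and thalamus array, 1 point per mouse, with a black bar for the median. Col6a1 and Col19a1 lie higher in cortex with no overlap, and the Col3a1 median is 6.34 in cortex and 7.52 in thalamus.

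Among fibrillar collagens, the chains of types I and III lay higher in thalamus. Col3a1, the chain of type III collagen, ranged from 5.16 to 7.33 in cortex with a median of 6.34, and from 6.90 to 8.21 in thalamus with a median of 7.52. It was higher in thalamus in 90 of the 90 mice with both values, and the ranges overlapped only where the highest cortex arrays met the lowest thalamus arrays. The cortex minus thalamus difference was -1.25 ± 0.07 (SE, adjusted p = 2.28e-54), while the dimmer Col3a1 probe set differed by -0.17 and was not called. Col1a1 and Col1a2, the 2 chains of type I collagen, showed the same direction below the size limit. Col1a1 had a median of 5.94 in cortex and 6.89 in thalamus and differed by -0.91 ± 0.05, and Col1a2 had medians of 8.71 and 9.30 and differed by -0.62 ± 0.05. Col1a1 was lower in cortex in all 91 mice measured and Col1a2 in all 90.

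Col11a1, a minor fibrillar chain that helps set fibre diameter, was called as well. It ranged from 6.47 to 7.57 in cortex (median 7.07) and from 7.61 to 8.53 in thalamus (median 8.13), with no overlap. The difference was -1.09 ± 0.04 (adjusted p = 2.27e-88), and the second Col11a1 probe set differed by -0.23. Col27a1, a fibrillar collagen known from cartilage, was called on its dimmer probe set (-1.01 ± 0.03) and differed by -0.58 ± 0.02 on the brighter one. The type V genes Col5a1 and Col5a2, whose chains join type I fibres, lay near equality, at -0.10 ± 0.04 and 0.02 ± 0.04. Over all 21 fibrillar probe sets the median difference was -0.33, the lowest -1.25 and the highest 0.02.

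**Figure D2:**
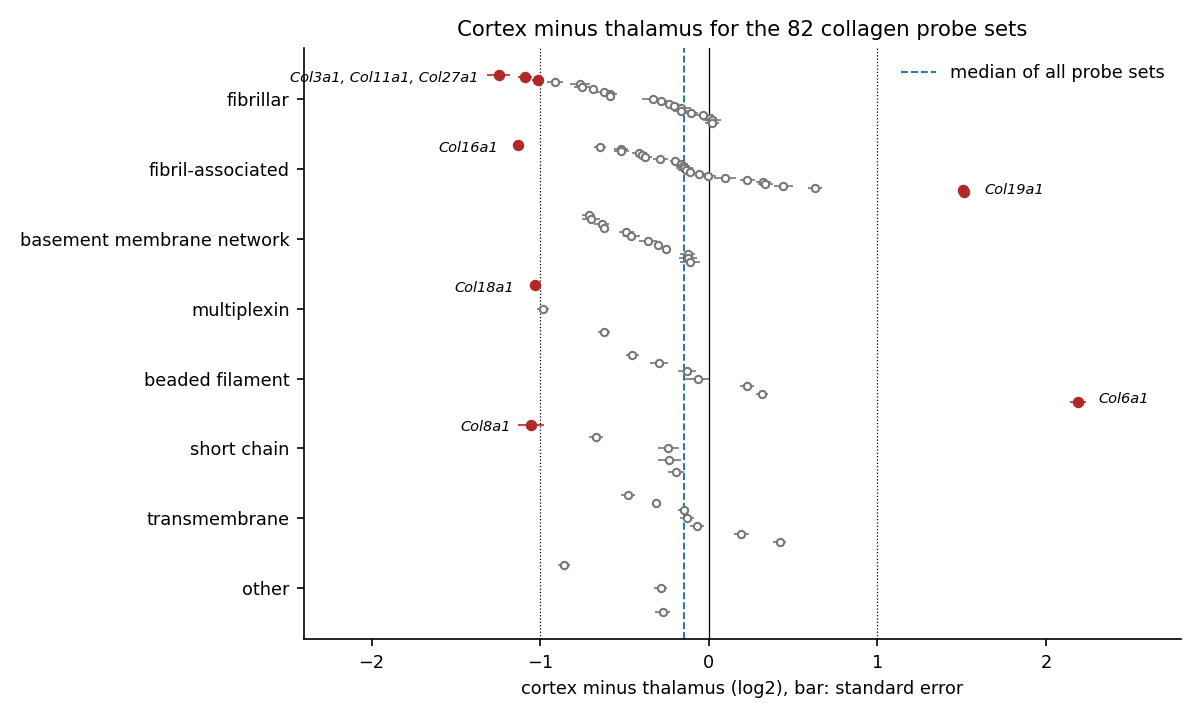
Difference of cortex minus thalamus (log2, horizontal axis) with its standard error for all 82 collagen probe sets, by class; filled red points were called, dotted lines mark a difference of 1, and the dashed line is the median of all probe sets, -0.15. The 3 called points on the right are Col6a1 (2.19) and 2 probe sets of Col19a1 (1.52 and 1.51).

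The basement membrane collagens lay higher in thalamus, but none by 2-fold. Of their 12 network probe sets 0 were called, against 5.51% of all probe sets. By the adjusted p alone 11 passed, all higher in thalamus, as did 60% of all probe sets. Their median difference was -0.41, with a range of -0.71 to -0.11, beside a median of -0.15 over all probe sets. Col4a1 and Col4a2, which make up the common type IV network of vessels, had medians of 8.71 and 8.05 in cortex and 8.97 and 8.64 in thalamus. The ranges of both overlapped between regions, they differed by -0.25 ± 0.02 and -0.62 ± 0.02, and Col4a2 was higher in thalamus in 91 of 91 mice. The multiplexins lie at the outer face of basement membranes, and Col18a1 among them, the source of endostatin, was called. It ranged from 6.10 to 7.17 in cortex (median 6.74) and from 7.37 to 8.21 in thalamus (median 7.75), with no overlap. The Col18a1 difference was -1.03 ± 0.03 (adjusted p = 5.98e-130), the second probe set differed by -0.62, and Col15a1 fell just short of the size limit at -0.98 ± 0.03.

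Col6a1, a chain of the beaded filaments that lie next to basement membranes, had the largest collagen difference and ran the other way. It ranged from 8.72 to 9.52 in cortex with a median of 9.19, and from 6.07 to 7.95 in thalamus with a median of 7.01, with no overlap. All 91 mice with both regions were higher in cortex, by 2.19 ± 0.05 (SE, adjusted p = 1.01e-159). Its partner chains did not share that size: Col6a2 differed by 0.31 ± 0.04 and Col6a3 by -0.45 ± 0.04.

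Among fibril-associated collagens, which sit on the surface of fibres, 1 gene was called in each direction. Col19a1, which has been described in neurons of the mouse forebrain, had a median of 8.28 in cortex (7.82 to 8.90) and 6.79 in thalamus (6.21 to 7.30), with no overlap. Cortex was higher in 91 of 91 mice, by 1.51 ± 0.03 (adjusted p = 5.57e-162), a second probe set gave 1.52 ± 0.03, and another gave 0.34 ± 0.04. Col16a1 had a median of 7.61 in cortex (7.25 to 7.95) and 8.76 in thalamus (8.50 to 9.12), again with no overlap. It was lower in cortex in 90 of 90 mice, with a difference of -1.13 ± 0.02 (adjusted p = 1.80e-159).

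Col8a1, a short chain collagen of vessel walls, had a median of 5.47 in cortex (4.24 to 6.56) and 6.52 in thalamus (5.74 to 7.06), and the ranges overlapped. It differed by -1.06 ± 0.08 (adjusted p = 1.04e-33) and was higher in thalamus in 89 of 91 mice. The other Col8a1 probe sets gave -0.67 and -0.20 and were not called. The one at -0.67 was the brightest Col8a1 probe set over cortex and thalamus arrays alone. Col25a1, the transmembrane collagen of neurons whose shed part is found in amyloid plaques, had a median of 9.31 in cortex (8.89 to 9.84) and 9.64 in thalamus (9.15 to 10.0). The ranges overlapped, and its difference of -0.31 ± 0.02 was not called. Cortex and thalamus arrays did not overlap for 6 member probe sets, against 8.3% of all probe sets.

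The scaling matters for these calls. When cortex and thalamus arrays were put on a common distribution by quantile normalization, the median of all probe sets moved from -0.15 to -0.02, and 4 of 82 members were called, 3 higher in cortex and 1 in thalamus. Over all probe sets, 1036 were called higher in cortex and 1444 in thalamus as deposited, and 1397 and 947 after this normalization; normalizing the arrays of all 4 regions together gave 1953 and 1472, with 10 members called. Under the normalization of cortex and thalamus arrays alone, Col11a1, Col16a1, Col18a1 and Col8a1 lay at -0.93, -0.97, -0.88 and -0.90. With hybridization date as a term, or on the 14 cortex and 20 thalamus arrays of the shared date, 8 were called and Col8a1 lay at -0.99. Region and date largely went together. The largest dates, with 78 cortex and 86 thalamus arrays, held none of the other region, so region and date cannot be told apart on them.

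Most marker lists of other cells lay higher in thalamus too. The meningeal fibroblast list (11 of 11 genes measured) had a summed level, as the mean log2 value of its genes, of 6.17 to 7.81 in cortex and 7.26 to 8.73 in thalamus, and 2 of its genes, Dcn (-1.13 ± 0.06) and Igf2 (-1.07 ± 0.07), were called higher in thalamus. The median difference was -0.78 for this list, -0.66 for mural cell markers, -0.43 for endothelial markers and -0.50 for choroid plexus markers, beside -0.15 over all probe sets. Oligodendrocyte markers had the lowest median of these cell lists, -0.88, with Mag and Mobp among 5 genes called higher in thalamus. Neuronal markers ran the other way, at 0.12, with Slc17a7 among 7 genes called higher in cortex. Their part in the collagen differences was not tested.

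The enzymes and partners of collagens were read from lists taken from textbook knowledge, chosen with earlier results of these data known. Of 27 measured genes of synthesis and crosslinking, 1 was called higher in cortex and 5 higher in thalamus. Adamts3, a protease that trims procollagen, lay higher in cortex by 1.20 ± 0.03. Sparc, a collagen-binding matrix protein, lay higher in thalamus, with a cortex minus thalamus difference of -2.30 ± 0.02. Pcolce2, Crtap, Plod1 and P3h4, which enhance trimming or take part in hydroxylation of the chains, differed by -1.70 ± 0.03, -1.18 ± 0.02, -1.16 ± 0.02 and -1.04 ± 0.02. Of 12 basement membrane partners 1 was called, the linker Nid1 (-1.01 ± 0.04), and of 9 collagen receptors 1 was called, Adgrg1 (-1.19 ± 0.02), a receptor of type III collagen. Against all probe sets (5.51%) these counts were 6 of 27, 1 of 12 and 1 of 9.

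The next question was whether collagens vary from mouse to mouse with the amount of meninges or vessels in the sample. Within each region every probe set was fitted on a marker score, the mean of standardised marker values scaled to an SD of 1 over mice, and a slope is the change in log2 value per SD of the score. None of the marker lists holds a collagen, and the lists were chosen with earlier results of these data known. For the meninges score (Dcn, Lum, Igf2, Ogn, Fmod and 6 others) limma called 5 of 82 members in cortex, 15 in thalamus, 16 in hippocampus and 20 in hypothalamus, all positive, at adjusted p under 0.05. The same test called 0.784%, 1.13%, 2.94% and 2.44% of all probe sets, and 0.722%, 1.01%, 2.17% and 2% with a positive slope.

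Col1a2 and Col3a1 were called in all 4 regions. The Col1a2 slope was 0.182 ± 0.013 in cortex (adjusted p = 1.22e-21), 0.431 ± 0.031 in the hippocampus, 0.430 ± 0.018 in hypothalamus and 0.293 ± 0.012 in thalamus, where it ranked second of all probe sets. Pearson's r with the score was 0.825 in cortex (rho = 0.823, n = 96 mice), 0.836 in hippocampus (rho = 0.849, n = 83), 0.924 in hypothalamus (rho = 0.920, n = 94) and 0.921 in thalamus (rho = 0.908, n = 108), each with a permutation p of 1e-05 for both, the smallest that 100000 permutations give (adjusted p = 1.88e-05 over the 60 relations computed). Without the 2 mice farthest from the median score r was 0.824, 0.839, 0.920 and 0.910. Within cohorts of at least 6 arrays r was positive in every one, between 0.476 and 0.984, and within hybridization dates it lay between 0.633 and 0.959.

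Col3a1 had slopes of 0.296 ± 0.033, 0.445 ± 0.035, 0.539 ± 0.026 and 0.273 ± 0.021 in the same order. Col1a1 was called in hippocampus (0.370 ± 0.037), hypothalamus (0.324 ± 0.022) and thalamus (0.131 ± 0.019), and in cortex had a slope of 0.067 ± 0.028 with an adjusted p of 0.293. Of the 21 fibrillar probe sets, 2 were called in cortex, 7 in the hippocampus, 10 in hypothalamus and 7 in thalamus. Beyond types I and III, the type V genes Col5a1 and Col5a2 were called in hypothalamus, with slopes of 0.132 ± 0.027 and 0.131 ± 0.033. In thalamus Col5a2 (0.110 ± 0.023) and a dimmer Col5a1 probe set (0.098 ± 0.026) were called. The third type V gene, Col5a3, was not called in these regions. Of the 24 fibril-associated probe sets 1 was called in all regions together, Col16a1 in hippocampus (0.112 ± 0.021).

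**Figure D3:**
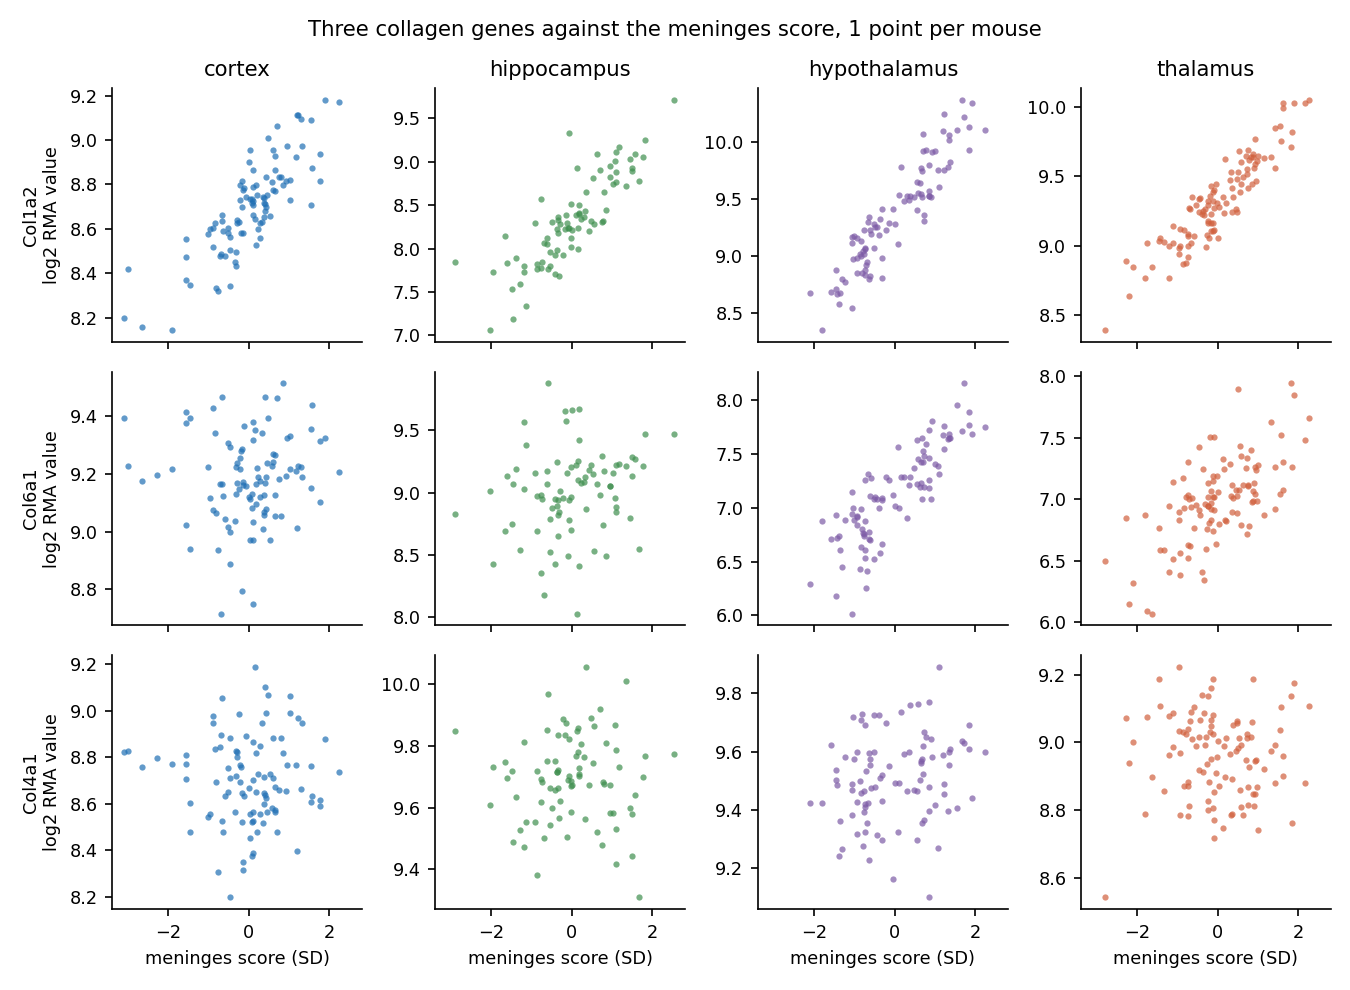
Log2 values of Col1a2, Col6a1 and Col4a1 (rows, vertical axes) against the meninges score in SD (horizontal axes) in the 4 regions (columns), 1 point per mouse. Col1a2 climbs with the score in each region, Col6a1 does so in hypothalamus and thalamus (r of 0.839 and 0.658), and the Col4a1 slopes did not pass the test.

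Type VI collagen followed the score by region. Col6a1 had a slope of 0.368 ± 0.025 in hypothalamus and 0.231 ± 0.025 in thalamus, and was not called in cortex (0.010 ± 0.016, adjusted p = 0.864) or hippocampus (0.069 ± 0.037, adjusted p = 0.383). Within hybridization dates the Col6a1 correlation with the score was 0.764 to 0.862 in hypothalamus, 0.629 to 0.818 in thalamus and 0.034 to 0.249 in cortex. Its levels in cortex stood between 8.72 and 9.52, a narrow range beside the 6.07 to 7.95 of thalamus. Col6a2 was called in hippocampus, hypothalamus and thalamus, at slopes of 0.152 ± 0.024, 0.309 ± 0.022 and 0.177 ± 0.015, and had a slope of 0.035 ± 0.013 in cortex (adjusted p = 0.182). Col6a3 was called in hippocampus (0.157 ± 0.039).

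The slopes of Col6a1, Col6a2 and Col1a2 differed between cortex and thalamus when the difference itself was tested in a joint fit. Of 82 members 4 were called, against 0.195% of all probe sets. Cortex minus thalamus, the slope differed by -0.22 ± 0.03 for Col6a1 (adjusted p = 1.02e-07), by -0.14 ± 0.02 for Col6a2 (adjusted p = 2.44e-07) and by -0.11 ± 0.02 for Col1a2 (adjusted p = 7.34e-06), with -0.15 ± 0.04 on a second Col1a2 probe set (adjusted p = 0.0306). A score SD is set within each region, so these are differences per SD of that region's own score. The Col3a1 difference was 0.02 ± 0.04 (adjusted p = 0.887).

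Among basement membrane chains, the chains encoded on the X chromosome were called for the meninges score and the bright probe sets of the major chains were not. Col4a5 was called in cortex on its dimmer probe set (0.111 ± 0.026), and in hippocampus (0.232 ± 0.031), hypothalamus (0.165 ± 0.024) and thalamus (0.101 ± 0.021). Col4a6 was called in hippocampus (0.324 ± 0.046), hypothalamus (0.246 ± 0.035) and thalamus (0.143 ± 0.037), and not in cortex. Both encode chains of type IV networks outside the common one. The bright Col4a1 probe set had slopes of 0.0001 ± 0.019 in cortex, 0.0010 ± 0.016 in the hippocampus, 0.029 ± 0.015 in hypothalamus and -0.0001 ± 0.012 in thalamus, with adjusted p of 0.414 or more, while the dimmer one was called in the hippocampus (0.074 ± 0.020). Col4a2 slopes lay between -0.007 and 0.014, with adjusted p of 0.723 or more. The transmembrane collagen Col13a1, known from cell adhesion, was called in cortex (0.104 ± 0.028), hippocampus (0.119 ± 0.026) and hypothalamus (0.214 ± 0.023), and Col23a1 in thalamus (0.151 ± 0.020). The short chain gene Col8a1 was called in hypothalamus (0.120 ± 0.026).

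**Figure D4:**
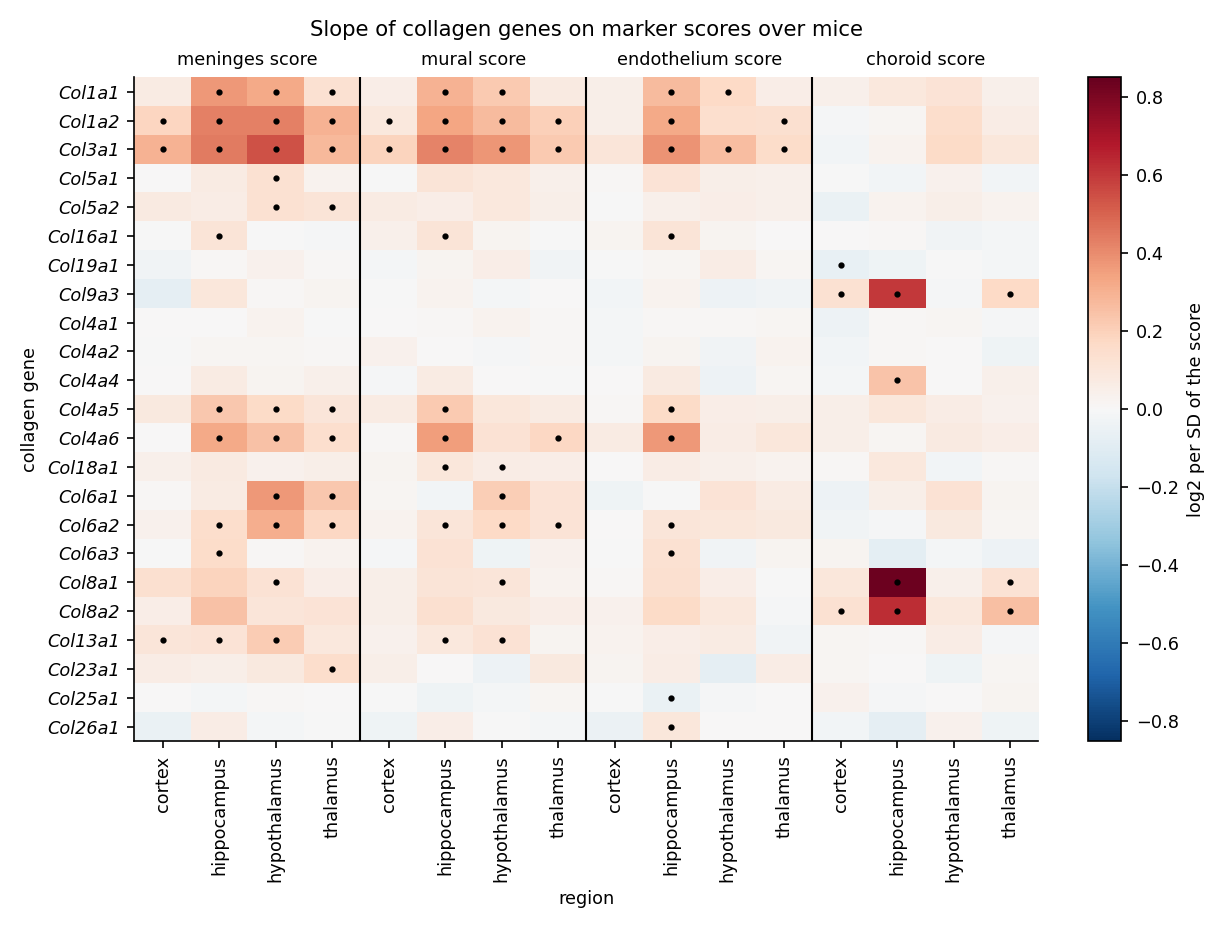
Slope (colour, log2 per SD of the score) of collagen genes (rows) on the meninges, mural, endothelium and choroid scores in 4 regions (columns); a dot marks a called slope. Genes called at least once are shown, with Col4a1 and Col4a2 added; types I and III fill the left blocks, and Col8a1, Col8a2 and Col9a3 the choroid block in hippocampus.

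Among the other genes of the pathway, Pcolce, which speeds the trimming of type I and III procollagen, was called for the meninges score in all 4 regions, as were the laminin genes Lama1 and Lamb2, the linker Nid1 and the collagen receptors Ddr2 and Mrc2. In cortex these were 1 of 27 synthesis genes, 3 of 12 basement membrane partners and 2 of 9 receptors, all positive. In hypothalamus the counts were 5, 5 and 4, in thalamus 2, 3 and 2, all positive again, and in hippocampus 6, 6 and 4, of which Adamts3 had a negative slope.

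Slopes on vessel marker scores were fitted in the same way. For the mural cell score (pericytes and smooth muscle) limma called 4 members in cortex, 20 in the hippocampus, 15 in hypothalamus and 8 in thalamus, against 0.475%, 5.67%, 1.12% and 0.646% of all probe sets. For the endothelium score it called 0, 20, 4 and 3, against 0.167%, 5.83%, 0.937% and 0.191%, with 7 members at an unadjusted p under 0.05 in cortex. Col3a1 had the largest called slope on the mural score in all 4 regions, 0.190 ± 0.040, 0.420 ± 0.038, 0.378 ± 0.047 and 0.223 ± 0.027. It also had the largest called endothelium slope in hippocampus (0.381 ± 0.043), hypothalamus (0.260 ± 0.055) and thalamus (0.158 ± 0.029), followed in hippocampus by Col4a6 (0.365 ± 0.042). Col1a2 followed the mural score in all 4 regions as well, with slopes of 0.088 ± 0.020, 0.338 ± 0.042, 0.266 ± 0.039 and 0.203 ± 0.023. In cortex the mural slope of Col6a4 was 0.138 ± 0.045 (adjusted p = 0.143). The multiplexin Col18a1 was called for the mural score in hippocampus (0.095 ± 0.026) and hypothalamus (0.062 ± 0.017). In cortex the endothelium slopes of Col3a1, Col6a1 and Col1a2 had adjusted p of 0.410 or more. Col26a1 was called for the endothelium score in hippocampus (0.098 ± 0.030). Col25a1 was the 1 member with a negative endothelium slope that passed, in hippocampus (-0.058 ± 0.017, adjusted p = 0.0300), and its adjusted p was 0.0530 with RIN as a covariate and 0.103 without the 2 mice farthest from the median.

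The meninges, endothelium and mural scores went together over mice. As a description, Pearson's r between meninges and endothelium was 0.284 in cortex (98 arrays), 0.627 in hippocampus (83 arrays), 0.412 in hypothalamus (94 arrays) and 0.423 in thalamus (108 arrays). Between meninges and mural it was 0.481, 0.672, 0.606 and 0.607, and between endothelium and mural 0.413, 0.835, 0.642 and 0.612. The choroid score had r between -0.009 and 0.320 with these scores. With all 4 scores in 1 model, limma called 0 members for endothelium in each of the 4 regions, against 0.0377%, 0.129%, 0.0155% and 0% of all probe sets. The meninges calls were then 2 in cortex, 6 in the hippocampus, 17 in hypothalamus and 12 in thalamus, against 0.837%, 0.846%, 2.34% and 1.06%. Col1a2 then had meninges slopes of 0.177 ± 0.015, 0.376 ± 0.042, 0.419 ± 0.023 and 0.272 ± 0.015 in the usual order of regions.

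Another group followed the choroid plexus, the epithelium that makes cerebrospinal fluid and lies beside the hippocampus in the ventricles. For its score limma called 10 members in hippocampus, all positive, against 1.95% of all probe sets, 6 in thalamus, all positive, against 0.191%, 4 in cortex, a share near the background of 3.56%, and 0 in hypothalamus against 0.04%, where 22 members had an unadjusted p under 0.05. In hippocampus the short chain genes Col8a1 and Col8a2 had slopes of 0.834 ± 0.065 (adjusted p = 1.03e-18) and 0.630 ± 0.059, and the fibril-associated Col9a3 of 0.601 ± 0.033 (adjusted p = 6.09e-28). Across the 83 hippocampus arrays Col8a1 ranged from 3.98 to 9.09 around a median of 6.42. In thalamus the slopes were 0.123 ± 0.025, 0.254 ± 0.034 and 0.167 ± 0.033. Col4a4 was called in hippocampus (0.240 ± 0.034) together with 1 of the 2 probe sets of its partner chain Col4a3 (0.448 ± 0.047), the brighter one in that region though dimmer over all arrays. In cortex Col8a2 (0.127 ± 0.025) and Col9a3 (0.127 ± 0.033) rose with the score and Col19a1 fell (-0.064 ± 0.018). The cortex choroid markers had a summed level of 5.07 to 7.35. In cortex the choroid score correlated at 0.439 with oligodendrocyte markers and at -0.383 with neuronal markers. The same slope was called positive for 5 of 5 oligodendrocyte markers and for the thalamic genes Tcf7l2 and Shox2, and negative for the cortical genes Tbr1 and Fezf2; their part in the collagen slopes was not tested.

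Col4a1 and Col4a2 went together within regions. Fitted on the standardised value of Col4a1, Col4a2 was called in all 4 regions, with slopes of 0.105 ± 0.017 in cortex (adjusted p = 4.41e-05), 0.074 ± 0.012 in hippocampus (adjusted p = 0.000843), 0.075 ± 0.013 in hypothalamus (adjusted p = 0.000181) and 0.061 ± 0.014 in thalamus (adjusted p = 0.0362). It ranked first of all probe sets in hippocampus. Of the 80 member probe sets of other genes, 2 were called in cortex, the second being Col6a1 (0.065 ± 0.014), and 1 in each other region. The 5 non-members with the largest moderated t per region were 13 distinct genes over the 4 regions, of which 10 lie on chromosome 8, among them 2610005L07Rik in all 4 regions. The test called 5.62% of all probe sets in cortex, 0.0355% in the hippocampus, 0.313% in hypothalamus and 0.107% in thalamus. Fitted the other way, on Col4a2, the bright Col4a1 probe set was called in cortex (0.100 ± 0.016), hippocampus (0.080 ± 0.013) and hypothalamus (0.077 ± 0.013), and missed the threshold in thalamus (0.048 ± 0.011, adjusted p = 0.0750). That fit called 3 members in cortex, 1 in the hippocampus, 5 in hypothalamus and 0 in thalamus, against 5.49%, 0.0155%, 3.28% and 0.0178% of all probe sets. The 5 in hypothalamus were probe sets of Col4a1, Col18a1 and Col23a1 and 2 of Col22a1.

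The correlation of Col4a1 with Col4a2 was 0.528 in cortex (rho = 0.498, n = 98), 0.566 in hippocampus (rho = 0.561, n = 83), 0.520 in hypothalamus (rho = 0.497, n = 94) and 0.386 in thalamus (rho = 0.413, n = 107), with permutation p of at most 2e-05 (adjusted p of at most 3.53e-05 over the 60 relations). Without the 2 mice farthest from the median it was 0.511, 0.511, 0.507 and 0.404. Within the hybridization date with most arrays it was 0.571, 0.581, 0.639 and 0.350. In hypothalamus the 75 arrays of that date alone gave a positive r, and the other two dates gave -0.414 on 7 arrays and -0.242 on 12. Within cohorts r lay between -0.131 and 0.792 in cortex, 0.078 and 0.854 in hippocampus, -0.662 and 0.809 in hypothalamus, and -0.154 and 0.874 in thalamus.

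The 2 genes lie head to head on chromosome 8, and their annotated start regions are shown because they share bases. Each window runs from 250 bases before to 50 after the RefSeq start of the gene on GRCm38.p6, written 5′ to 3′ on the gene's own strand. Col4a1 lies on the minus strand at chr8:11312777-11313076 and Col4a2 on the plus strand at chr8:11312555-11312854. Capitals mark the 78 bases that the windows share, each being the reverse complement of the other.
Col4a1: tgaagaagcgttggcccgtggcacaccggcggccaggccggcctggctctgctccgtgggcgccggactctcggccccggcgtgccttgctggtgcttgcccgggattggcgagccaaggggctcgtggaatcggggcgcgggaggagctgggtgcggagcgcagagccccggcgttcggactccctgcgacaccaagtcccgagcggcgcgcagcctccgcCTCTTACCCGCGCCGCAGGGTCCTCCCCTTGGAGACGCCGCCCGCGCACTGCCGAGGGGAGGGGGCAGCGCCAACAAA
Col4a2: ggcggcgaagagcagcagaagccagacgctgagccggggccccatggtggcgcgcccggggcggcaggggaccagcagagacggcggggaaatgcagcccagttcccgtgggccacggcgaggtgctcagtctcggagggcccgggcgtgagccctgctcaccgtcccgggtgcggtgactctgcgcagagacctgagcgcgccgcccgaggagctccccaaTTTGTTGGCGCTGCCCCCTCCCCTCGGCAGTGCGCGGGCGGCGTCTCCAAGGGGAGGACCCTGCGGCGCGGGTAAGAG
Windows were at hand for 33 of the 42 collagen genes, 36 windows in all, and this was the 1 pair of collagen genes with overlapping windows on opposite strands; among 27025 genes with a window, 11.9% took part in such an overlap. The motif CCAAT, searched on both strands with overlaps allowed, occurred once in each of these windows, and in 37.4% of all 32851 windows of the same length.

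Col1a2 went with another kind of gene. Its slope called 2 of 79 members of other genes in cortex, 14 in the hippocampus, 18 in hypothalamus and 14 in thalamus, all positive, against 0.335%, 3.3%, 2.29% and 1.07% of all probe sets. Col9a2 in hippocampus (0.115 ± 0.035) and Col22a1 in hypothalamus (0.098 ± 0.026), both fibril-associated, were among them. The genes with the largest moderated t outside the members were Ogn, Fmod, Prg4, Pcolce and Slc6a20a in cortex, and among others Slc6a13, Aldh1a2, Crabp2 and Islr in the other regions; Ogn, Fmod, Slc6a13, Aldh1a2 and Islr are on the meninges list. Its start region, at chr6:4505368-4505667 on the plus strand of the same build, is shown with its CCAAT motifs in either orientation in capitals. Col3a1, on chromosome 1, was correlated with Col1a2 at 0.646 in cortex, 0.843 in the hippocampus, 0.889 in hypothalamus and 0.772 in thalamus (rho = 0.639, 0.830, 0.885 and 0.767, each permutation p = 1e-05), with 1 negative value among the 9 cortex cohorts and none in the other regions, and its window held no CCAAT.
Col1a2: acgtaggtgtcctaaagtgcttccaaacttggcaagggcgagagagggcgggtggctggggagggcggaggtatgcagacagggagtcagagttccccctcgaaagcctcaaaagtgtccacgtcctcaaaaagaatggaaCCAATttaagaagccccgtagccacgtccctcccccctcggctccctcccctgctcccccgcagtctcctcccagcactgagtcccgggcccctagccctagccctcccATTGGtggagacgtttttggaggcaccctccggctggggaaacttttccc

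Col25a1 went with collagens at a share near that of all probe sets. Its slope called Col6a2 in cortex (-0.056 ± 0.012) and Col24a1 in the hippocampus (-0.23 ± 0.06), 1 of 80 members each, against 1.96% and 0.959% of all probe sets, and 0 in hypothalamus and thalamus, against 0.251% and 0.286%. The Col24a1 call was lost with RIN as a covariate and without the 2 mice farthest from the median. The non-members with the largest moderated t on Col25a1 in cortex were Fstl5, Cmas, Grb10, Tspan6 and Myc, and in hippocampus Rps29, Nrp2, Ptprz1, Gm38440 and Ufc1.

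The last comparison asked whether a collagen that is high in one region of a mouse is high in another. Correlations over mice with adjusted p under 0.05 were found for 3 of 82 members between cortex and hippocampus (69 mice), 6 between cortex and hypothalamus (80 mice) and 5 between cortex and thalamus (91 mice), against 5.75%, 6.8% and 8.89% of all probe sets. The counts were 3 between hippocampus and hypothalamus (67 mice), 4 between hippocampus and thalamus (74 mice) and 5 between hypothalamus and thalamus (88 mice), against 8.68%, 5.94% and 8.14%. With 82 members these counts lie near or below the background. Not all calls were positive. Between cortex and hypothalamus 3 of the 6 were positive (6.62% of all probe sets), and the others were both Col5a2 probe sets (r = -0.402 and -0.506) and Col25a1 (r = -0.327). Between hippocampus and thalamus 3 of the 4 were positive (5.69% of all probe sets), and Col17a1 was negative (r = -0.406). For 74 of 82 members no pair of regions gave a positive call; at least 1 pair did for 16.2% of all probe sets.

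A few members passed repeatedly. A dimmer Col12a1 probe set, of a fibril-associated collagen, passed in all 6 pairs, against 3.28% of all probe sets, with r from 0.347 to 0.520 (rho from 0.357 to 0.529, largest permutation p of r = 0.00081). The other 3 Col12a1 probe sets, the brightest among them, passed in 0 pairs, with median r between -0.004 and 0.003. Its values in hippocampus and hypothalamus reached down to -0.70 and 0.37, which is off the usual scale. Col4a1 passed in 5 of 6 pairs, with r from 0.302 to 0.473 (rho from 0.293 to 0.521, largest permutation p of r = 0.0128), and Col6a4 in 4. The dimmer Col4a1 probe set passed in 0 pairs, with r from -0.110 to 0.304 and a median of 0.146. Within cohorts of at least 6 mice, 34 of 39 values were positive for that Col12a1 probe set (-0.268 to 0.920, median 0.521) and 36 of 39 for Col4a1 (-0.788 to 0.847, median 0.356). Col1a2 had r from 0.005 to 0.311 with a median of 0.048, and passed between cortex and thalamus, as did Col3a1 (r = 0.420). The meninges score had a median r of -0.037 between regions, and 0 of 6 pairs passed at an adjusted p over the pairs, with 1 of 6 at an unadjusted p under 0.05. The endothelium score had a median r of 0.239 and passed in 3 of 6 pairs by permutation, again adjusted over the pairs. These were hippocampus with hypothalamus (adjusted p = 0.0338), hippocampus with thalamus (0.0162) and hypothalamus with thalamus (0.0338). The members passed by another rule, an adjustment over all probe sets. By the rule of the scores Col4a1 passed in 6 of 6 pairs (largest adjusted p = 0.0128, permutation).

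**Figure D5:**
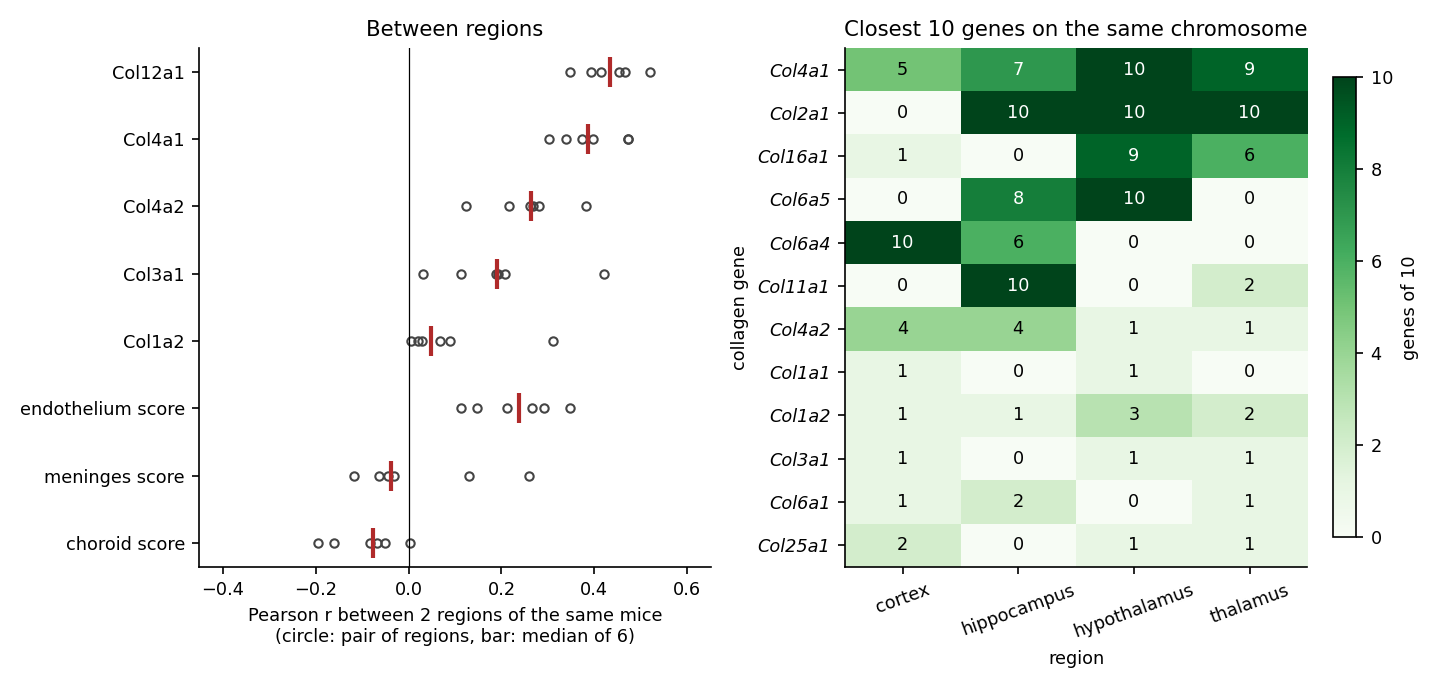
Left, Pearson r between 2 regions of the same mice (horizontal axis) for collagen genes and marker scores, a circle per pair of regions and a red bar for the median; Col4a1 lies between 0.302 and 0.473, the meninges score between -0.117 and 0.259. Right, of the 10 genes with the largest absolute correlation with a collagen gene over mice of a region, the number on its own chromosome.

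Where the closest genes of a collagen lie on the genome was described after these results. For each of the 42 genes and each region, the 10 other genes with the largest absolute correlation over mice were taken. At least 5 of the 10 lay on the gene's own chromosome for 2 of 42 collagen genes in cortex, 5 in the hippocampus, 4 in hypothalamus and 3 in thalamus, against 7.42%, 8.03%, 10.6% and 10.0% of all 18029 genes with a known chromosome. The collagens as a class lay near the background, so what follows describes single genes. Col4a1 met it in all 4 regions, with 5, 7, 10 and 9 of 10 genes on chromosome 8, such as Gins4, Pnpla6 and 2610005L07Rik. Col2a1, the fibrillar collagen of cartilage, met it in hippocampus, hypothalamus and thalamus, with 10 of 10 genes on chromosome 15 in each. Col16a1 met it in hypothalamus and thalamus (chromosome 4), Col6a4 in cortex and hippocampus and Col6a5 in hippocampus and hypothalamus (both chromosome 9), and Col11a1 in hippocampus (chromosome 3). For the other 36 genes, among them Col1a1, Col1a2, Col3a1 and Col6a1, no region met it, and Col1a2 had 1 to 3 of 10 on chromosome 6.

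The probe sets called for a gene's slope were placed in the same way. Of the probe sets with a known chromosome that limma called for Col4a1, 69.2% lay on chromosome 8 in hippocampus, 68.5% in hypothalamus, 83.8% in thalamus and 6.82% in cortex. On chromosome 8 lie 5% of all probe sets. With or without a known chromosome, 16, 141, 48 and 2529 were called in these regions. Among collagen genes with at least 10 such probe sets, most lay on the gene's own chromosome for 1 of 20 genes in cortex. The counts were 4 of 27 in hippocampus, 4 of 26 in hypothalamus and 3 of 18 in thalamus. For Col2a1 in hypothalamus 93.9% of 49 lay on chromosome 15, against 3.95% of all. For Col1a2, 3.5% in cortex, 6.03% in the hippocampus, 5.81% in hypothalamus and 5.07% in thalamus lay on chromosome 6, against 5.53%. Genotypes were not analysed here, and what these genes share beyond the chromosome was not tested.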

How the data were processed

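The authors deposited log2 values for 45037 probe sets of an Affymetrix whole-genome mouse array; per the submitters' processing notes affy and RMA (background correction, quantile normalization and probe summary) were used, with no version named. Genes were named from the platform annotation, with chromosomes and start regions from RefSeq (GRCm38.p6). Missing values, 0.211% of all, were left out probe set by probe set, except that they were set to the gene's mean when the 10 closest genes were found.

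With limma 3.58.1 (R 4.3.3; linear models with trended empirical Bayes variances), 1 mean per region was fitted on all arrays, or a slope within a region, and p-values were adjusted by Benjamini-Hochberg over all 45037 probe sets, or over all but the probe sets of the gene used as covariate. Marker scores used 1 probe set per gene. Correlations used scipy 1.17.1 with 100000 two-sided permutations; 60 relations within regions were computed, with adjustment over them. Named were the members called between cortex and thalamus, 9 collagens whatever their values (Col1a1, Col1a2, Col3a1, Col4a1, Col4a2, Col6a1, Col18a1, Col19a1 and Col25a1), most of the 3 genes with the largest moderated t per score, non-members among the 5 closest to Col1a2, Col4a1 and Col25a1, and called pathway genes, some by count alone. Members and lists were chosen with earlier results of these data known. The comparison of chromosomes and the fit on Col4a2 were added after seeing the data, and other genes were named after their values were seen. Steps were tested on simulated data. Array numbers limit the precision. Behaviour and sleep traits were not used.

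Cortex and thalamus share mice, so the animal is a known pairing. The animal as a block (duplicateCorrelation, consensus correlation 0.038) called 9 members, as without it.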

Additional observations from a re-analysis of the deposited data

Results flagged for a closer look

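The meninges score slopes of 4 collagen probe sets differed between cortex and thalamus by the test of the difference itself (limma, adjusted over all probe sets). Cortex minus thalamus, they differed by -0.22 for Col6a1, -0.14 for Col6a2, and -0.15 and -0.11 for 2 Col1a2 probe sets, per SD of each region's own score. A further, dimmer Col1a2 probe set was not called.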

How the results depend on the processing

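Of 87 counts of called members recomputed under an alternative setting, 73 lay within 1.5 times the value reported. For cortex minus thalamus, quantile normalization of these regions alone called 4 members and no minimum difference 72, and the animal as a replicate block called 9. With all 4 marker scores in 1 model, the meninges score called 2 in cortex and 6 in hippocampus, and the endothelium score 0 in hippocampus, in hypothalamus and in thalamus. On the hybridization date with most arrays, a setting chosen after seeing the data, the meninges score called 3 in cortex. Without the 2 mice farthest from the median, the mural score called 1 in cortex and 13 in hippocampus, the choroid score 2 in cortex, the endothelium score 12 in hippocampus and Col25a1 0 in hippocampus; Col25a1 also called 0 there with RIN as a covariate. The cause was not tested. Of 334 values of single genes, 300 stayed on their side of the threshold with their direction, and 4 turned their sign, none of them past the threshold afterwards. With 4 scores the Col1a2 endothelium slope was -0.065 in hypothalamus and -0.00195 in thalamus, and without the 2 mice of each region farthest from the median the slope difference of cortex minus thalamus was 0.00484 for Col4a2 and 0.00335 for Col18a1. Dim probe sets limit what can be read, as 51 of 82 members were brighter than the dimmest of 3 equal parts of all probe sets.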
